A study of Mus musculus with 2 samples.

Results

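The 7 genes described here encode RNA-binding proteins and chromatin proteins of fetal growth: the IGF2 mRNA-binding proteins Igf2bp1, Igf2bp2 and Igf2bp3, the let-7 inhibitors Lin28a and Lin28b, and the high-mobility-group proteins Hmga1 and Hmga2. They are 7 of 21938 protein-coding genes of GENCODE M21. They were chosen by the height of an open region upstream of Igf2bp3, among the tallest distal regions of these data, so that height is given as a description. Open chromatin was mapped by DNase-seq, which sequences the ends of fragments that DNase I releases from nuclei, in whole urinary bladder of female B6CASTF1/J mice aged 4 days. The strain is an F1 cross of C57BL/6J with CAST/EiJ, and positions refer to the C57BL/6J reference (mm10). The samples form 1 group of 2 biological replicates; the labels number the females separately but give both the same donor identifier. No treatment or genotype was compared, and the spread between samples may be partly technical.

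LIN28 proteins bind the precursors of the let-7 microRNAs and block their maturation, and let-7 in turn represses transcripts such as those of HMGA2, LIN28B and IGF2BP1. IGF2BP proteins bind target mRNAs, the Igf2 transcript among them, and act on their stability, transport and translation. HMGA proteins bend AT-rich DNA and help transcription factors to assemble. These genes are known for high levels in the embryo, and most of them for a decline around or after birth. DNase-seq measures how open the DNA is and not how much RNA is made. In whole tissue, fewer cells of a type and less open DNA per cell cannot be told apart.

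A peak height is the signal that the authors deposited for a peak. Each height was a whole multiple of a step, 0.00466 in replicate 1 and 0.00417 in replicate 2 (100% of peaks, tolerance 0.02 steps), and 95% intervals below are exact Poisson intervals on the number of steps, which cover counting error only. The longer deposited lists held 96518 peaks in replicate 1 and 122870 in replicate 2. A promoter peak lay at least partly within 500 bp of an annotated transcription start site (TSS) of the gene. Intronic regions were centred inside the gene and outside its exons. Distal regions were centred outside the gene, over 500 bp from any TSS and within 100 kb, with the gene as the nearest protein-coding gene. A region was shared when peaks of both replicates overlapped by at least 1 bp. Across all 53490 shared regions log2 height in replicate 1 over that in replicate 2 had a median of 0.28 (SD 0.40). As a check of the tissue label, promoter peaks were present in both samples at 5 of 6 smooth muscle, 5 of 5 fibroblast, 4 of 10 urothelial, 2 of 4 endothelial and 1 of 3 peripheral glia marker genes. They were present at 0 of 4 leukocyte, 0 of 3 erythroid, 0 of 3 hepatocyte and 0 of 4 pluripotent cell markers. Over all protein-coding genes the share was 62.3%, so the urothelial, endothelial and glial counts were below it. Dazl was the only germ cell gene of 4 with such a peak. Of the uroplakins, which define the urothelium, Upk1b and Upk3a had a promoter peak in each sample, Upk2 only in replicate 1, and none was found at Upk1a or Upk3b. In the shorter deposited lists 0 of 10 urothelial markers had a promoter peak in both samples. There the counts were 4 of 6 smooth muscle, 4 of 5 fibroblast, 2 of 4 endothelial and 1 of 3 peripheral glia markers, against 55.0% of all protein-coding genes.

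The sequences below carry the main observations at these loci. They are read from GRCm38.p6, the assembly of mm10. The first is the tall region between Igf2bp3 and Tra2a, chr6:49236421-49236620, plus strand, with capitals marking a block of 168 bases that recurs elsewhere in the genome. The next are its near copies inside Gphn, chr12:78350950-78351117, and inside Lars2, chr9:123461812-123461979, both on the minus strand, with capitals marking the bases that differ from the Igf2bp3 block.
Tall region upstream of Igf2bp3: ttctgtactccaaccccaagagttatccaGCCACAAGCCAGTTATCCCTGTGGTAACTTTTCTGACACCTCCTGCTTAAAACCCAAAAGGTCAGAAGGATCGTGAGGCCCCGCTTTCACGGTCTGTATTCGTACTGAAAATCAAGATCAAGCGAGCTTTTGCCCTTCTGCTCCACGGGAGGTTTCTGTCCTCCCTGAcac
Copy inside Gphn: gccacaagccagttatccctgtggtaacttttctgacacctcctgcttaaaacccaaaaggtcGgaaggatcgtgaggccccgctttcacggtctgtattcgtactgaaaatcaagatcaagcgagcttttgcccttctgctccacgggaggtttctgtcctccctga
Copy inside Lars2: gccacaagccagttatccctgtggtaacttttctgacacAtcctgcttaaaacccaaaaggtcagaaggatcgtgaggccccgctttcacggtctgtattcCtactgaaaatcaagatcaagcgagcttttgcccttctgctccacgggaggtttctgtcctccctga
Positions are counted from 1 at the first base of the block. The Gphn copy differed from the Igf2bp3 block by A64G, and the Lars2 copy by C40A and G102C.

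A further set shows open regions of the members that have no near copy elsewhere, all on the plus strand. It holds the region closer to Igf2bp3, chr6:49217981-49218220, the region of Lin28a with the highest mean, chr4:134020721-134020880, the tallest distal region of Hmga1, chr17:27547276-27547480, and the tallest intronic region of Hmga2, chr10:120377501-120377720. Capitals mark matches on either strand to GGGCGGG (bound by SP and KLF factors) and CCAAT (NFY) at Igf2bp3, to TGANTCA (AP-1) at Hmga1, and to CCAAT and TTCNNNGAA (STAT) at Hmga2. No motif of the 20 searched matched in the Lin28a region, which is therefore all in lower case.
Second distal region of Igf2bp3: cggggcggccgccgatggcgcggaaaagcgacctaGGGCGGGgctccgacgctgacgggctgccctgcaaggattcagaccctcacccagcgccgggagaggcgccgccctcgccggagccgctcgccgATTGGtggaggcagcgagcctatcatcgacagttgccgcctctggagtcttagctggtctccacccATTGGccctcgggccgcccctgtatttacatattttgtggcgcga
Closer distal region of Lin28a: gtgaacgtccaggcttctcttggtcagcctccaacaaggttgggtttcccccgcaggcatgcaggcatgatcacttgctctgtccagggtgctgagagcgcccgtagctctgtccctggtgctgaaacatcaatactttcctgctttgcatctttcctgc
Tallest distal region of Hmga1: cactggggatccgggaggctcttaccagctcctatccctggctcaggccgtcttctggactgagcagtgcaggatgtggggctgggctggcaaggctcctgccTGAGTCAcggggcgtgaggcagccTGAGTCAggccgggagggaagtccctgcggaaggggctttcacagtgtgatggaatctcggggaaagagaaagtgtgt
Tallest intronic region of Hmga2: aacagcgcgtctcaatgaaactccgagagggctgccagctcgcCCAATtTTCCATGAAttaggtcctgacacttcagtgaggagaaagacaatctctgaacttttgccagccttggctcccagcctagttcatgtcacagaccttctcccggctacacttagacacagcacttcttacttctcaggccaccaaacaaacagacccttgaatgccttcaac

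Of the 7 genes, 6 had an open promoter in both replicates and Lin28a in neither. The background was 62.3% of all protein-coding genes open in both replicates, 65.4% in replicate 1 and 64.7% in replicate 2. No test was made of so few genes chosen with results known. In the shorter, stricter lists the count was 4 of 7 (Igf2bp2, Igf2bp3, Hmga1 and Hmga2), where 55.0% of all genes had such a peak. Igf2bp1 had a stricter promoter peak in replicate 1 alone, and Lin28b had none. The tallest promoter peak of each of the 6 genes was below the median of the 13670 genes with open promoters. That median was 2.57 in replicate 1 and 1.87 in replicate 2.

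**Figure D1:**
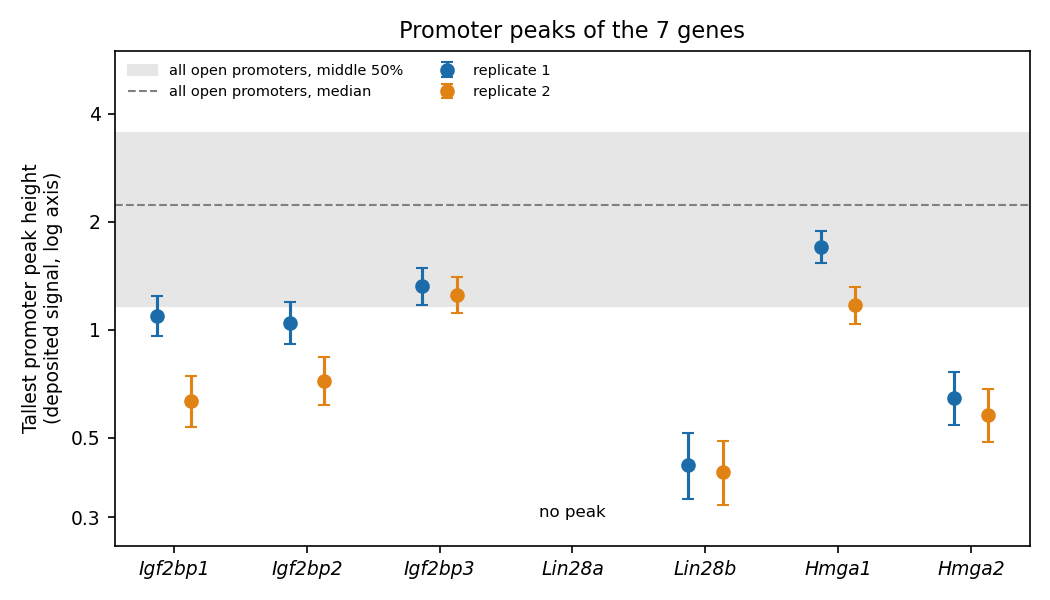
Height of the tallest promoter peak of each gene in replicate 1 and replicate 2 (deposited signal, log axis), with 95% exact Poisson intervals as bars. The shaded band spans the middle 50% of the mean heights of the 13670 open promoters, from 1.17 to 3.55, with their median at 2.23; every plotted point lies below that median, and Lin28a had no peak.

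Among the IGF2BP genes, Igf2bp3 had the tallest promoter peak on average (chromosome 6, 49085223 to 49214957, minus strand). Its height was 1.32 in replicate 1 (95% interval 1.17 to 1.49) and 1.25 in replicate 2 (1.11 to 1.40). The replicates did not differ beyond counting error (log2 ratio 0.08, exact 95% interval -0.16 to 0.32), and the mean of 1.29 ± 0.0506 (SD, n = 2) was higher than 28.0% of open promoters. That peak was centred 549 bp upstream of the 5′ end, and the region over the start itself was lower, at 0.773 in replicate 1 and 0.596 in replicate 2.

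Igf2bp2 (chromosome 16, 22059009 to 22163299, minus strand) had 3 shared promoter regions. Its tallest promoter peak was 1.05 in replicate 1 (95% interval 0.915 to 1.19) and 0.721 in replicate 2 (0.618 to 0.837), a mean of 0.884 ± 0.231 (SD, n = 2), higher than 16.8% of open promoters. Igf2bp1 (chromosome 11, 95957163 to 96005940, minus strand) had 1 promoter peak in each replicate, of 1.09 in replicate 1 (0.959 to 1.24) and 0.634 in replicate 2 (0.537 to 0.743). Its mean of 0.864 ± 0.326 (SD, n = 2) was higher than 16.1% of open promoters. For both genes replicate 1 was higher and the intervals of the replicates did not overlap. The log2 ratio was 0.54 at Igf2bp2 (95% interval 0.25 to 0.83), which includes the median ratio of all shared regions, and 0.79 at Igf2bp1 (0.49 to 1.09), which lies above it. The noncoding gene Gm29202 starts within 1 kb of an Igf2bp1 TSS. Whether the promoter peak of Igf2bp1 also belongs to Gm29202 was not tested.

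Lin28a, the member known from pluripotent cells (chromosome 4, 134003330 to 134018841, minus strand), had no promoter peak. Its promoter windows span 3462 bases, and none of them was listed with a false discovery rate below 0.05 for the rate of DNase cuts in either replicate. Among all genes without a promoter peak, a listed stretch was present in the windows of 2.68% in replicate 1 and 3.04% in replicate 2, so an empty window was the rule for such genes. Lin28b (chromosome 10, 45376620 to 45486395, minus strand) had the lowest promoter of the 6 open members, at 0.419 in replicate 1 (95% interval 0.337 to 0.515) and 0.400 in replicate 2 (0.324 to 0.489). Its mean of 0.410 ± 0.0133 (SD, n = 2) was higher than 1.91% of open promoters. The tallest peak was a different one in each replicate: the shared region over the start had 0.419 in replicate 1 and 0.359 in replicate 2, and the region next to it had 0.359 in replicate 1 and 0.400 in replicate 2. The intervals of the replicates overlapped.

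Hmga1 (chromosome 17, 27556497 to 27563674, plus strand), the HMGA gene that many proliferating cells use, had the tallest promoter of the 7 genes on average and in replicate 1, while Igf2bp3 was taller in replicate 2. Its height was 1.70 in replicate 1 (95% interval 1.53 to 1.89) and 1.17 in replicate 2 (1.04 to 1.32), a mean of 1.44 ± 0.377 (SD, n = 2), higher than 31.9% of open promoters. A further promoter region of Hmga1 reached 1.39 in replicate 1 and 1.02 in replicate 2, and its centre lay inside the noncoding gene Gm49774. Hmga2 (chromosome 10, 120361275 to 120476469, minus strand), a classic let-7 target, had 0.647 in replicate 1 (0.544 to 0.764) and 0.580 in replicate 2 (0.487 to 0.684). The mean was 0.613 ± 0.0479 (SD, n = 2), higher than 7.93% of open promoters. In order of mean height the promoters ran Hmga1, Igf2bp3, Igf2bp2, Igf2bp1, Hmga2 and Lin28b. Between neighbours in that order, Hmga1 and Igf2bp3, Igf2bp2 and Igf2bp1, and Igf2bp1 and Hmga2 differed by less than the SD of the more variable of the pair. The values of Igf2bp3 and Igf2bp2, and those of Hmga2 and Lin28b, did not overlap. At the edge of the promoter window of Hmga2, a region centred 462 bp from the TSS counted as promoter (0.563 in replicate 1 and 0.421 in replicate 2) and the adjoining region at 707 bp counted as distal (0.750 in replicate 1 and 0.550 in replicate 2).

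The RefSeq promoter table (GRCm38.p6, 250 bases before to 50 after each start) held 6 of the 7 genes, all but Igf2bp1. GC content there was 76.7% for Igf2bp2, 72.3% and 74% for the pair of Hmga1 starts, 63.3% for Lin28a, 60.3% for Igf2bp3, 57.7% for Hmga2 and 39% for Lin28b, against a median of 52.7% over 32851 promoters. CpG dinucleotides numbered 47 at Igf2bp2, 38 and 40 at Hmga1, 25 at Igf2bp3, 12 at Hmga2, 10 at Lin28a and 8 at Lin28b, where the median of all promoters was 7. The Lin28a window, which had no peak, held fewer CpG than the windows of Hmga1, Igf2bp2, Igf2bp3 and Hmga2, and more than the median promoter. Its GC content was above that of the open Igf2bp3 and Hmga2 windows. The RefSeq start of Lin28b lies inside the gene, away from the open start that GENCODE M21 annotates, and had no peak. GGGCGGG on either strand was present in the windows of Igf2bp2, Hmga1 and Hmga2, as in 25.6% of all promoters of the table, and CCAAT in those of Igf2bp3 and Lin28b, as in 37.4%.

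Away from promoters, the 7 genes had 14 shared intronic and 16 shared distal regions, and no shared exonic region, where 9.58% of all genes had at least 1. At least 1 shared intronic region was present at 5 of 7 genes, where the background was 25.1% of all protein-coding genes, and at least 1 shared distal region at 5 of 7, where it was 32.1%. In the shorter lists these counts were 4 of 7 for intronic and 3 of 7 for distal regions, and without the dense runs of low peaks described for Igf2bp3 3 of 7 genes had a distal region. The shares of all genes were not computed under these settings, and those of the longer lists are no background for them. All 7 had at least 1 intronic or distal region, against 47.0% of all genes. Igf2bp3 is counted there, and among the 5 genes with a distal region, by construction, since its tall distal region led to the choice of the genes. Most of the 7 are long genes. Igf2bp3, Hmga2, Lin28b and Igf2bp2 spanned 104 kb to 130 kb, and Igf2bp1, at 48.8 kb, was longer than 76.6% of protein-coding genes, where the median gene spanned 17.4 kb. The part of gene length in the intronic counts was not tested. Of the 14 intronic regions, 8 were above the median of all 13343 shared intronic regions and 6 below, and of the 16 distal regions 5 were above the median of all 15650 shared distal regions and 11 below.

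**Figure D2:**
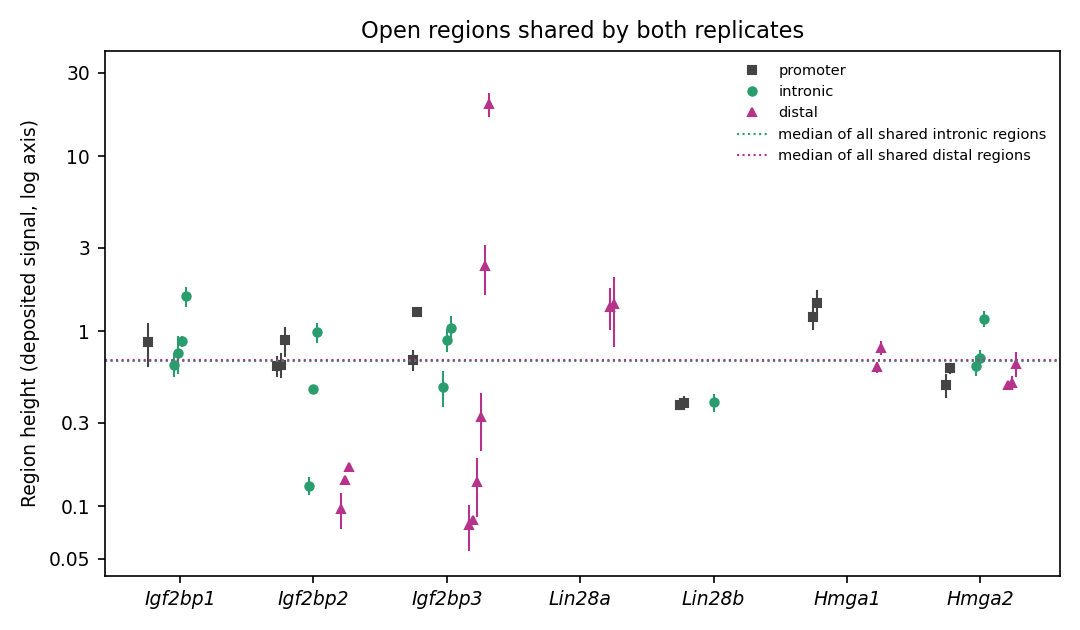
Height of each of the 42 regions shared by both replicates, by gene and class (deposited signal, log axis). Markers give the mean, vertical lines join the heights in replicate 1 and replicate 2, and dotted lines give the medians of all shared intronic (0.677) and distal (0.685) regions; the region upstream of Igf2bp3 at 19.8 stands alone at the top, and low distal regions under 0.35 lie near Igf2bp2 and Igf2bp3.

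Igf2bp3 had 6 shared distal regions, more than any other member, and they spanned the widest range of heights. The tall region had a height of 22.6 in replicate 1 (95% interval 21.9 to 23.2) and 16.9 in replicate 2 (16.4 to 17.5), a mean of 19.8 ± 3.98 (SD, n = 2). It lay 21.6 kb upstream of the 5′ end of Igf2bp3 and 18325 bp from the nearest TSS of any gene. It ranked 4 among 15650 distal regions, and the region just below it in rank had a mean of 15.6. The other 5 were far lower. The second, 3.14 kb upstream of the 5′ end, had a height of 3.07 in replicate 1 (2.84 to 3.32) and 1.62 in replicate 2 (1.46 to 1.79), and its mean of 2.35 ranked 788. Replicate 1 exceeded replicate 2 there by a log2 ratio of 0.92 (95% interval 0.74 to 1.11), above the median ratio of all shared regions. The remaining 4 had means of 0.0780 to 0.323.

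The tall region is mostly made of the repeated block. By textbook knowledge the block reads as the reverse complement of a conserved stretch of large-subunit ribosomal RNA, which is transcribed from repeated gene arrays; no annotation used here labels it at this position. A search of the genome with blastn found 32 further matches, of which 3 had at least 90% identity over at least 100 bases. All 3 had a peak in both replicates, against 0 of the 29 shorter or less similar matches. The copy inside Lars2, a mitochondrial leucyl-tRNA synthetase gene, was 98.8% identical over 168 bases and its peak was 26.6 in replicate 1 and 23.8 in replicate 2. The copy inside Gphn, the gephyrin gene, was 99.4% identical and had 9.36 in replicate 1 and 4.94 in replicate 2. The third copy, chr16:17222412-17222515, was 97.1% identical over 105 aligned bases, had Hic2 as its nearest protein-coding gene and had 6.73 in replicate 1 and 8.80 in replicate 2. Among the 25 tallest distal regions, which include this region and the copy nearest to Hic2, 9 had a near copy elsewhere, against 1 of 25 at middle height. The sources used here do not say how reads that match several places were treated, and the part of the copies in the height of this region was not tested. Without regions that have near copies, the tallest distal region of Igf2bp3 is the one at 2.35. Of the other 41 regions of the members, 1 had a near copy, the promoter region over the start of Hmga2.

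**Figure D3:**
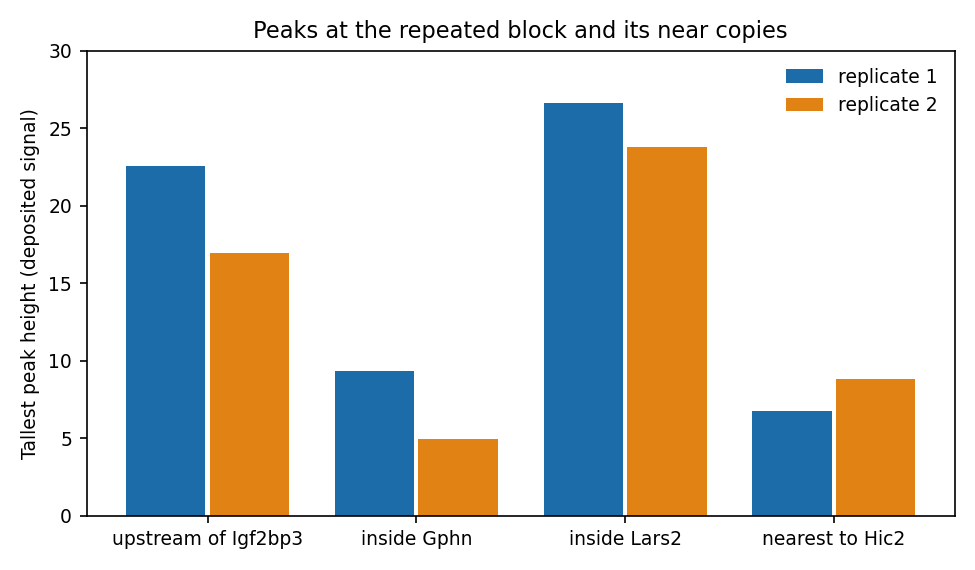
Height of the tallest peak (deposited signal, linear axis from 0) in replicate 1 and replicate 2 at the block upstream of Igf2bp3 and at its 3 near copies, inside Gphn, inside Lars2 and nearest to Hic2. The copy inside Lars2 was the tallest in both replicates, at 26.6 in replicate 1 and 23.8 in replicate 2, and the copies inside Gphn and nearest to Hic2 stayed below 10.

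Most peaks around Igf2bp3 were found in replicate 1 alone. The gene had 78 intronic peaks in replicate 1, of which 75 overlapped no peak of replicate 2, and 8 in replicate 2, of which 5 overlapped none of replicate 1. Counts of distal peaks were 27 in replicate 1 and 7 in replicate 2. These were low peaks, with a median height of 0.133 for the intronic peaks of replicate 1. They fell into dense runs, defined as 10 or more peaks of a replicate with neighbouring centres at most 5 kb apart and a median height under 0.256 in replicate 1 or 0.161 in replicate 2. A run of 53 peaks spanned 30.9 kb within the gene in replicate 1, where 53.5% of its bases were listed with a false discovery rate below 0.05. In replicate 2 the same span held 0 peaks and 0 listed bases. Another run of 58 peaks spanned 38.9 kb across the gene start and the tall region, with 61.6% of bases listed in replicate 1, against 12 peaks and 8.98% of bases in replicate 2.

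Igf2bp2 had the opposite pattern around and upstream of its start. It had 8 distal peaks in replicate 1, some of them beyond its 3′ end, and 26 in replicate 2. A run of 32 mostly low peaks spanned 19.3 kb in replicate 2, with 47.8% of its bases listed there. This run began inside the gene and included its promoter peaks, so its tallest peak was 0.721. In replicate 1 the same span held 10 peaks, promoter peaks among them, and 17.6% of its bases were listed. Runs of this kind were common, numbering 1004 in replicate 1 and 1062 in replicate 2 with 23.1% and 21.4% of the peaks. What sets them was not tested. The 3 shared distal regions of Igf2bp2 lay in this stretch and had means of 0.0957 to 0.167. The other 5 genes had no such run in either replicate.

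**Figure D4:**
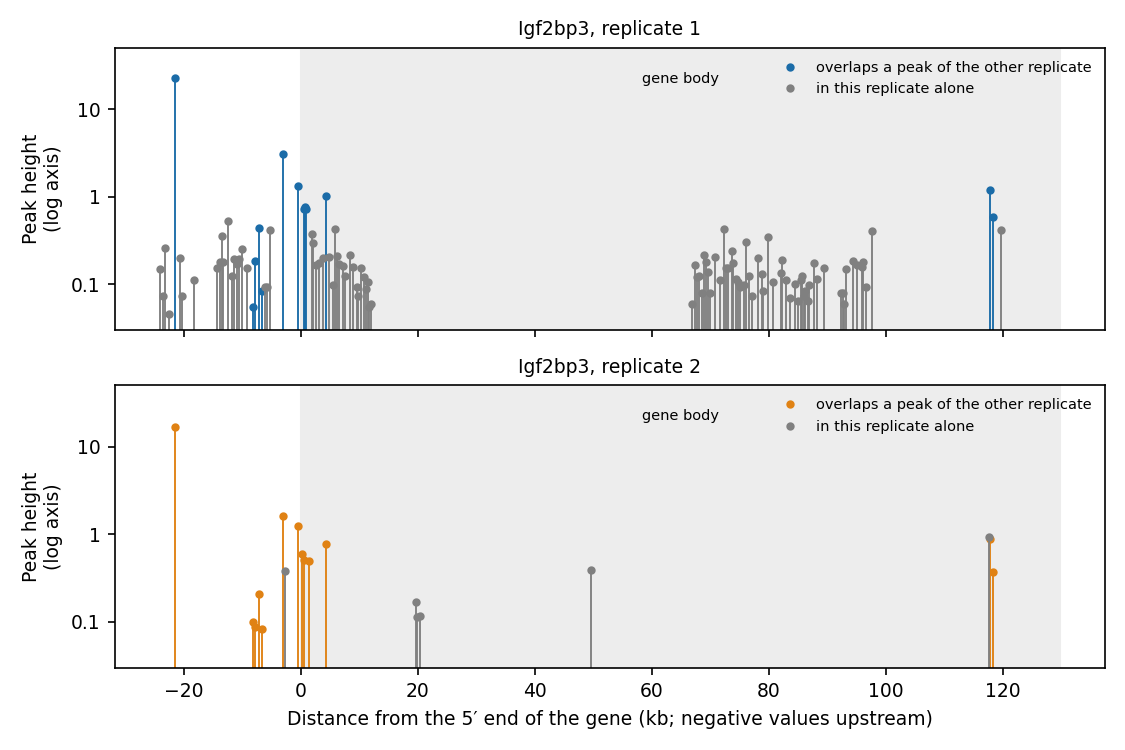
Peak heights (deposited signal, log axis) around Igf2bp3 against the distance from its 5′ end in kb, in replicate 1 (upper panel) and replicate 2 (lower panel); negative distances are upstream and the shaded span is the gene. Coloured points overlap a peak of the other replicate and grey points do not; the tall region at -21.6 kb and the regions near the start are in both replicates, and most of the dense low peaks are in replicate 1 alone.

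Intronic regions of the IGF2BP genes ranged widely in mean height, from rank 1520 (in Igf2bp1) to rank 12776 (in Igf2bp2) of 13343 shared intronic regions. Igf2bp1 had 4 shared intronic regions, and the tallest, chr11:95988621-95988820, had 1.77 in replicate 1 and 1.39 in replicate 2, taller than its promoter in both replicates. It was 17.2 kb inside the gene and 6.11 kb from the nearest TSS. In Igf2bp3 the tallest intronic region, chr6:49097021-49097280, lay 118 kb from the 5′ end and had 1.21 in replicate 1 and 0.880 in replicate 2. Another, 4.32 kb inside the gene, had 1.02 in replicate 1 and 0.767 in replicate 2. Of the 3 shared intronic regions of Igf2bp2, the tallest, chr16:22123761-22123940, had 1.10 in replicate 1 and 0.871 in replicate 2, and the lowest had 0.144 in replicate 1 and 0.117 in replicate 2.

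Although its promoter had no peak, Lin28a had 2 shared distal regions upstream. The closer, chr4:134020721-134020880 (sequence above), lay 1.96 kb from the 5′ end with 2.01 in replicate 1 (95% interval 1.83 to 2.21) and 0.826 in replicate 2 (0.715 to 0.949). The other, chr4:134036061-134036260, lay 17.3 kb away with 1.74 in replicate 1 (1.57 to 1.93) and 1.02 in replicate 2 (0.898 to 1.16). The means, 1.42 and 1.38, differed by less than the spread between replicates, and the farther region was the taller in replicate 2. Both had a greater height in replicate 1, and the closer region had the largest log2 ratio of all 42 member regions, at 1.28 (95% interval 1.04 to 1.53). Nearness does not show that a region acts on Lin28a. Lin28b had a lone shared intronic region, with 0.349 in replicate 1 and 0.434 in replicate 2, and no distal region.

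Hmga1, a short gene, had no shared intronic region and 2 shared distal regions. The one at 9.11 kb upstream (sequence above) had 0.740 in replicate 1 and 0.867 in replicate 2, and the one at 1.23 kb had 0.587 in replicate 1 and 0.655 in replicate 2. Both were centred inside Gm49774, and the intervals of the replicates overlapped at each. Hmga2 had 3 shared regions of each kind. Its tallest intronic region (sequence above) lay 98.9 kb from the 5′ end, inside 1700006J14Rik as well, and had 1.07 in replicate 1 and 1.29 in replicate 2. It was 1 of the 9 member regions that were higher in replicate 2, against 33 that were higher in replicate 1. The median log2 ratio of all shared regions, 0.28, also lay toward replicate 1, and the share of all regions higher in each replicate was not computed. The other intronic regions of Hmga2 had means of 0.703 and 0.635, and its distal regions had means of 0.491 to 0.650, with 2 of the 3 lying 76.3 kb and 76.8 kb upstream.

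**Figure D5:**
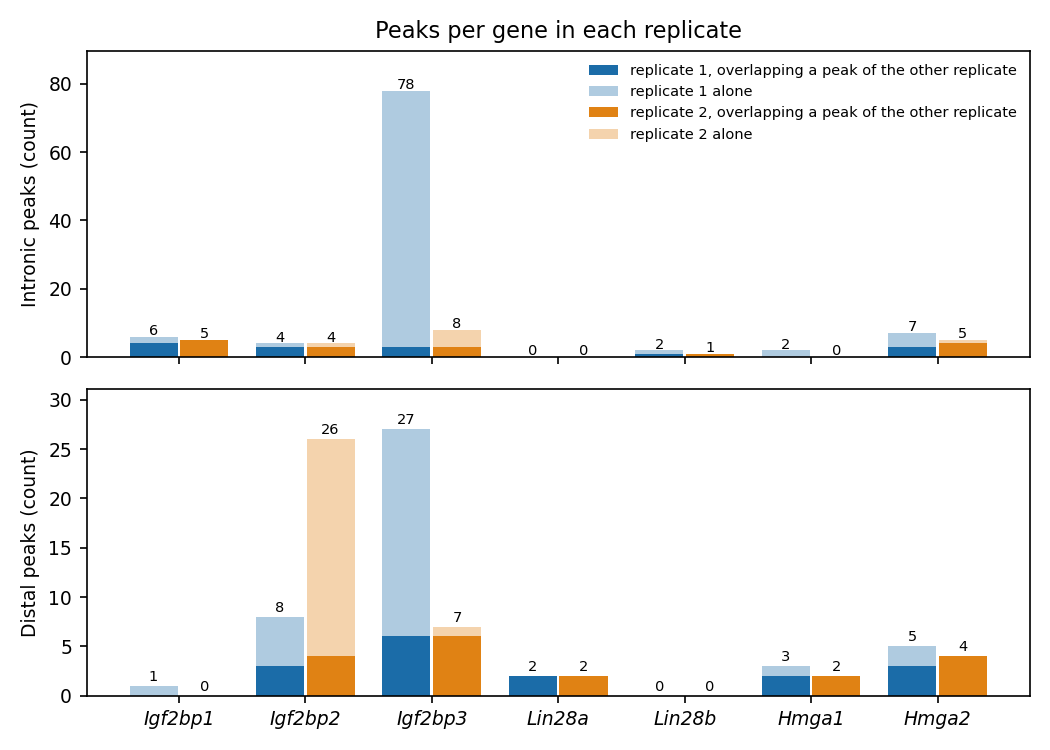
Number of intronic (upper panel) and distal (lower panel) peaks of each gene in replicate 1 and replicate 2, with the darker part overlapping a peak of the other replicate. Igf2bp3 had 78 intronic peaks in replicate 1 and 8 in replicate 2, and Igf2bp2 had 8 distal peaks in replicate 1 and 26 in replicate 2; the other genes had at most 7 of either kind in a replicate.

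Over all 42 shared regions of the members, the median log2 ratio of replicate 1 over replicate 2 was 0.35, with a range of -0.84 to 1.28, and 3 regions lay more than 2 SD from the median of all shared regions. The share of all 53490 shared regions that lay as far out was not computed, so this count cannot be read as particular to the members.

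Footprints, short stretches protected from DNase I inside open regions, were deposited for each replicate and played no part in choosing the genes. At least 1 footprint lay in 35 of the 42 shared regions in replicate 1 and in 36 in replicate 2, 33 of them in both, against 86.8% and 86.1% of all shared regions. The members held 155 footprints in replicate 1 and 104 in replicate 2. Igf2bp3 held 44 in replicate 1 and 29 in replicate 2, Hmga2 held 39 in replicate 1 and 27 in replicate 2, and Lin28a held 4 in replicate 1 and 5 in replicate 2. Footprint numbers were set beside those of all shared regions in the same decile of height in that replicate. The tall region upstream of Igf2bp3 held 2 footprints in replicate 1 and 3 in replicate 2, where the median of the top decile was 5 (replicate 1) or 4 (replicate 2). That decile ran from 3.30 to 51.7 in replicate 1 and from 2.44 to 60.6 in replicate 2, so it includes regions far lower than this one. The second distal region of Igf2bp3, which was much lower, held 7 footprints in replicate 1 and 6 in replicate 2, against a median of 4 in its height decile in each replicate. Each of its 3 motif matches marked above lay in a footprint in both replicates. This did not hold for the other marked matches. Those of AP-1 at Hmga1 lay in a footprint in neither replicate, and CCAAT and TTCNNNGAA at Hmga2 in replicate 2 alone. The longest promoter region, that of Hmga2 at 1536 bp, held 17 footprints in replicate 1 and 7 in replicate 2.

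Motif matches were counted on either strand in the central 150 bp of shared regions, for 20 motifs. AP-1 (TGANTCA) matched in 5 of the 30 intronic and distal regions of the members (16.7%), against 5.97% of all 27745 such regions. The 5 were intronic regions of Igf2bp2, Igf2bp3 and Hmga2, a low distal region of Igf2bp3 and the tallest distal region of Hmga1, which holds the motif at 2 places. CCAAT matched in 7 of the 30 (23.3%), against 16.6%, and GGGCGGG in 4 (13.3%), against 7.11%. Over whole regions AP-1 matched in 5 of the 30, against 8.72% of all such regions. CCAAT then matched in 7, against 24.9%, so its share in the members was no longer the higher. GGGCGGG matched in 5, against 9.76%. In the 12 promoter regions GGGCGGG matched in 5 (41.7%), against 34.8% of all 18983 promoter regions, and CCAAT in 3 (25%), against 22.1%. Some other motifs were also more frequent in the members than in the background. Among them, STAT matched in 2 of the 30 regions (6.67%), against 3.97%. In promoters, RUNX matched in 1 of the 12 regions (8.33%), against 4.90%. Others were less frequent in the members, in the class of regions given. RUNX (TGTGGT) and TEAD (GGAATG) each matched in 2 of the 30 regions (6.67%), against 11% and 9.13%, AGATAA, a match for GATA factors, in 0, against 3.89%, and ETS (CCGGAAG) in 0 of the 12 promoter regions, against 10.04%. The longer core of the CTCF motif matched in 0 of the 42 regions, against 3.24% of all intronic and distal and 0.342% of all promoter regions, and its short core AGGTGGCAG matched in 1 of the 30, an intronic region of Igf2bp1 (3.33%, against 2.52%). With so few regions a match more or less moves these shares by several percentage points, and a match is not a bound site.

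A list of 30 genes around this pathway was read beside the members. An open promoter in both replicates was present at 29 of 30, where 62.3% of all protein-coding genes had it. The 29 include the noncoding gene H19, which that share does not cover. The list holds well-known regulators and was not tested. The exception was Trim71, a let-7 target and partner of LIN28 in stem cells, with 0.563 in replicate 1 and none in replicate 2. Igf2, the fetal growth factor, had a low promoter of 0.638 in replicate 1 and 0.596 in replicate 2, and its neighbour H19, the noncoding RNA that carries miR-675, had 1.10 in replicate 1 and 0.775 in replicate 2. The receptors differed in height: Igf1r had 1.68 in replicate 1 and 1.36 in replicate 2, Insr had 3.68 in replicate 1 and 2.93 in replicate 2, and Igf2r, which clears IGF2, had 1.14 in replicate 1 and 1.19 in replicate 2. Igf1r also had 10 shared intronic regions.

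Genes of microRNA processing ranged from 1.78 to 5.77 in mean promoter height, on both sides of the median of open promoters. Drosha and Dgcr8, which cut the primary transcript, had means of 5.77 ± 1.45 and 4.35 ± 0.787 (SD, n = 2), and Dicer1, which cuts the precursor, had 5.58 ± 1.60. Tut4 and Tut7, the terminal uridylyltransferases that tail let-7 precursors bound by LIN28, had 2.41 ± 0.107 and 2.87 ± 0.837, and Dis3l2, the nuclease that degrades the tailed precursors, had 1.78 ± 0.453. Xpo5, which exports precursors from the nucleus, had 2.81 ± 0.412, and Ago2, which carries the mature microRNA, had 3.06 ± 0.852. The tallest promoter of the list was that of Plag1, a transcription factor that activates Igf2, at 7.14 ± 0.554. Other growth genes of the list were lower, with 2.22 ± 0.304 at Cdkn1c, 1.97 ± 0.331 at Peg3, 1.58 ± 0.289 at Plagl1, 0.848 ± 0.0925 at Mycn and 0.678 ± 0.0809 at Dlk1. The means of Plagl1, Mycn and Dlk1 were below those of all the processing genes named above. Of the 29 pathway genes with values, 15 were above the median of all open promoters and 14 below, where all 6 open members were below it. That median is of protein-coding genes, and the noncoding H19 is among the 14.

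Of 12 let-7 genes, Mirlet7i alone had a peak in both replicates within 500 bp of its annotated start, at 1.70 in replicate 1 and 1.14 in replicate 2. These starts are the ends of the hairpin and not of the longer primary transcript, whose promoters were not analysed here. The mature let-7i (RefSeq, GRCm38.p6) is shown with its seed, bases 2 to 8, in capitals, since the mature forms of all 11 let-7 genes matched share that seed.
let-7i-5p: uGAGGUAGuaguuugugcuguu
The complement of this seed, CTACCTC, occurred in the longest annotated 3′ UTR of every member: 4 times each in Igf2bp1, Lin28b and Hmga2, 2 times in Lin28a, and 1 time each in Igf2bp2, Igf2bp3 and Hmga1. These 3′ UTRs were 1186 to 6340 bases long. The share of all protein-coding genes with such a match was not computed, so the count cannot be read as particular to the members. It is a property of the annotation and no measure of these samples.

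Genes whose profile was most like that of each member were ranked by distance over 4 features (promoter height in each replicate and the numbers of shared intronic and distal regions, on log scales), among 13670 genes and over 2 replicates. Igf2r was closest to Igf2bp3, at a distance of 0.21, with 3 shared intronic and 6 shared distal regions like Igf2bp3, and was followed by Rab11fip4 and Lhfpl2. Prrc2b, Mdga1 and Hmcn1 were closest to Igf2bp2, and Antxr1, Synpo2 and Patj to Igf2bp1. Hcrtr2, B4galnt2 and Brinp3 were closest to Lin28b, Ckb, Pnmal2 and 4930503L19Rik to Hmga1, and Mdga1, D7Ertd443e and Chrm3 to Hmga2. Lin28a was left out of this ranking because it had no promoter height.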

How the data were processed

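DNase-seq peaks, false discovery rates and footprints were deposited by the authors for each replicate, on mm10 per the labels. The chromosome lengths of GRCm38.p6, used for sequences, held every peak. The authors' peak height is the deposited signal of a peak; the sources used here do not give its scale, the aligner or the peak caller. The deposited rate lists give a p-value adjusted as a false discovery rate per stretch of bases, listed below 0.05, and the footprint lists carry 0.01 throughout as their deposited p-value. Of each replicate's pair of peak lists, the longer was used. Read depth is unknown, so precision was taken from the number of height steps.

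The genes, gene lists, motifs and measures were chosen with earlier results of these data known. All 7 members, 30 pathway genes and 12 let-7 genes were fixed as named genes, with the 3 genes most like each member. Peaks were assigned to GENCODE M21 genes with Python 3.11.15, numpy 2.4.6, pandas 2.3.3 and scipy 1.17.1; the assignment was tested on simulated peaks. Sequences were read with pysam 0.24.0, copies were searched with blastn 2.17.0 (E-value at most 1e-10), and figures were drawn with matplotlib 3.10.9. Log2 ratios of the replicates have exact binomial intervals. With 1 group of 2 replicates, no test between groups was made. Alternatives covered the peak list, TSS choice, windows, overlap, leaving out a replicate, near copies and dense runs.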

Additional observations from a re-analysis of the deposited data

How the results depend on the processing

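No paired analysis was possible because the samples form 1 group and no groups were compared. The number of members with a promoter peak in both replicates stayed at 6 under a 1000 bp window, the 5′ end of the gene alone, and either replicate alone, and was 4 in the shorter lists; pathway genes ranged from 24 to 30 around 29. The 14 shared intronic regions became 6 in the shorter lists, and 23 to 99 peaks when either replicate was left out. The 16 shared distal regions became 7 in the shorter lists, 41 to 46 when either replicate was left out, and 7 without dense runs of low peaks, an alternative chosen after seeing the data that by construction removes every distal region of Igf2bp2 and Igf2bp3, which then had 0 each. The mean number of footprints over the replicates in shared regions was 129.5, against 61 in the shorter lists and 115 to 260 when either replicate was left out. These counts change by construction, since fewer or unshared peaks are counted. The tallest distal region of Igf2bp3 was 19.8, 16.9 to 22.6 when either replicate was left out, and 2.35 with near copies left out, also chosen after seeing the data. The number of regions with an AP-1 match stayed at 5 over whole regions, where the share of all such regions rose from 5.97% to 8.72%. Among values of single genes, 11 moved beyond the spread between replicates or 1.5 times a count in the shorter lists and 20 did not, and 14 moved without replicate 2 and 6 without replicate 1. The lowest height at a shared member region, 0.0559 in replicate 1 near Igf2bp3, was 12 height steps, with a 95% interval of 0.0289 to 0.0976.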
